A study of Mus musculus with 6 samples.

Results

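The collagen genes were the 44 mouse genes of a fixed list of symbols, running from Col1a1 to Col28a1, and all 44 were found among the 21938 protein-coding genes of the GENCODE annotation. They were followed through the chromatin accessibility of smooth muscle cells of the oviduct, measured by ATAC-seq, in which the Tn5 transposase inserts sequencing adapters mainly into open DNA. The cells were primary oviductal muscle cells taken from mice of 8 to 12 weeks on D2 (day 2 of pregnancy) and kept in culture for a few hours. Each genotype, the controls named WT in the labels and the Pbrm1 cKO mice, had 3 libraries and 1 pooled list of reproducible peaks. Per the methods of the study, the conditional knockout combines floxed Pbrm1 alleles with a Cre recombinase driven from the progesterone receptor gene, so that deletion follows the expression of this receptor across the female reproductive tract and is not limited to muscle. The controls of that cross are littermates with floxed Pbrm1 and no Cre, whereas the labels call them WT. Pbrm1 encodes a subunit of PBAF, a SWI/SNF complex that moves nucleosomes, and the comparison asks where accessibility changes without it. The labels do not say which animals each library came from, and p-values measure only the spread between these libraries.

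Collagens are triple helices of 3 chains and form the main fibres and sheets of the extracellular matrix. Fibrillar collagens such as types I, III and V assemble into the cables that give tissue its tensile strength. Type IV collagen forms the network of basement membranes, the thin sheets that surround each smooth muscle cell, and types XV and XVIII sit in or beside them. Type VI forms beaded filaments around cells, fibril-associated collagens such as types XII and XIV decorate the surface of fibrils, and a few members are transmembrane proteins. Smooth muscle cells and fibroblasts are known sources of these proteins. Several chains of 1 trimer are encoded by neighbouring genes that share a promoter, above all in the type IV family.

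The list of each library held 300000 entries, or 298563 for Pbrm1 cKO library 3, and these were ranked within each library. The weakest entry had a −log10 p of 2.66, 3.00 and 2.22 in WT libraries 1, 2 and 3. In the Pbrm1 cKO libraries it was 3.25, 3.11 and 2.00. A missing entry therefore has an unlike floor in each library and does not show that accessibility was absent. The number of tags (Tn5 insertions) over a peak's summit was recovered from the fold enrichment and the p-value of each entry. Over the collagen regions, WT libraries 1, 2 and 3 had a median of 26, 24 and 14 tags, and the Pbrm1 cKO libraries had medians of 28, 24 and 24 tags. WT library 3 thus had the fewest. It also had the lowest median fold enrichment over its list, 3.61 against 4.43 to 4.87. Depth and enrichment cannot be told apart here. The promoter of Pbrm1 ranked between 7677.5 and 10891.5 in WT libraries and between 8617.5 and 10864.5 in Pbrm1 cKO libraries, which does not check the deletion itself. Of 6 smooth muscle markers, the promoters of Acta2, Myh11, Cnn1, Tagln and Des had an entry in all 6 libraries, and that of Actg2 had one in 2 of the WT and in 1 of the Pbrm1 cKO libraries. All 4 fibroblast and all 4 endothelial markers also had entries in all 6 libraries, as did 5 of 6 epithelial markers, so that promoter accessibility alone did not set 1 cell type apart. The best median rank of the 24 markers was 4145.5, for the epithelial marker Foxj1, against 9952 for Tagln, the best smooth muscle marker. The median over the 6 epithelial markers was 14201, and over the 6 smooth muscle markers 11673. Of the 4 immune markers, the myeloid marker Csf1r had entries in all 6 libraries with a median rank of 11845, the T cell marker Cd3e had no entry in any library, the leukocyte marker Ptprc was found in 1 WT library and no other, and the macrophage marker Adgre1 in 1 WT library and all 3 Pbrm1 cKO libraries. None of the 24 marker promoters passed the threshold in the comparison of genotypes, and the smallest adjusted p among them was 0.819 (limma). Their part in the results was not tested.

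Across the 44 genes and 10 kb on both sides, 281 of 66678 accessible regions of the merged lists were counted. Of these, 184 (65.5%) were called in both genotypes, 39 (13.9%) in the WT list only and 58 (20.6%) in the Pbrm1 cKO list only. Over all regions the shares were 69.2%, 13.4% and 17.4%, and in the windows of all protein-coding genes 71.0%, 12.0% and 17%. With 1 list per genotype these counts have no replicate check. A call in 1 list was not absence in the other genotype, since 33 of the 39 WT-only regions and 46 of the 58 Pbrm1 cKO-only regions had an entry in all 6 libraries. Both kinds were weak regions, with a median rank of 55123 and 54503 among 66678, against 27149 for the shared ones.

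The regions were spread unevenly over the family. Fibrillar genes held 83 regions, or 6.56 per 100 kb, basement membrane genes held 74, or 5.41 per 100 kb, and the other collagens held 124, or 3.50 per 100 kb. The windows of all protein-coding genes held 3.84 per 100 kb. Taken per gene, the median was 4.53 per 100 kb for the collagens and 4.46 for all protein-coding genes. Within the other collagens, type VI genes held 34 regions, fibril-associated genes 44, short-chain genes 15, transmembrane genes 21 and the remaining 3 genes 10. The genes with the most regions were Col4a2 with 20, Col27a1 with 18, Col15a1 with 14, and Col4a1 and Col18a1 with 13 each. Col10a1, the collagen of hypertrophic cartilage, had none, and Col2a1, Col6a2, Col9a2 and Col20a1 held 1 each. Col1a1 and Col1a2, the chains of type I collagen, held 7 each, and Col3a1, the type III chain, held 5.

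**Figure D1:**
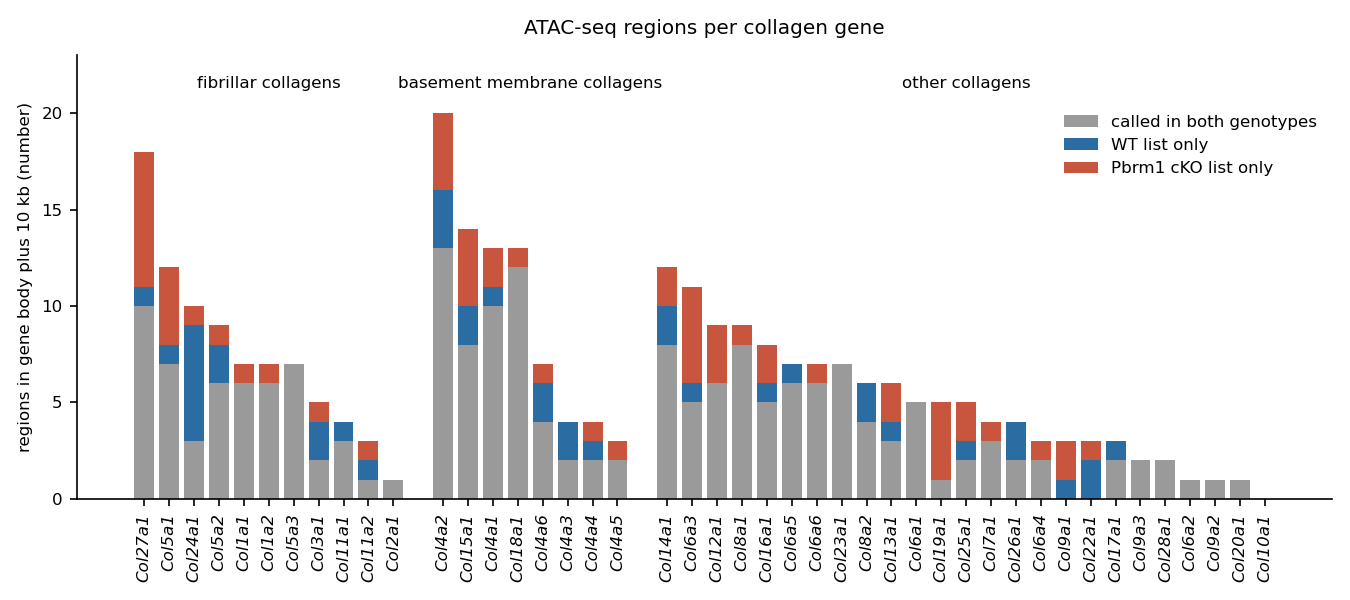
Number of accessible regions (vertical axis) in each collagen gene body plus 10 kb, stacked by call in both genotypes (grey), in the WT list only (blue) or in the Pbrm1 cKO list only (red). Col4a2 has the tallest bar with 20 regions, and Col10a1 has none.

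Most collagen regions lay inside genes. Introns of any gene held 169 regions (60.1%), against 33.7% of all regions and 41.2% of those in protein-coding windows, and 59 of the 74 basement membrane regions (79.7%) were intronic. Collagen gene windows are long, with a median of 134 kb against 37.4 kb for all protein-coding genes. Another 46 regions lay within 1 kb of an annotated start of a collagen gene, internal starts included, and 16 at the start of a neighbouring gene. Of the 44 genes, 29 had a region at an own start, with 8 of 11 fibrillar, 7 of 8 basement membrane and 14 of 25 other genes. Col3a1 was among those without, and its 2 shared regions lay 4.6 kb and 44.6 kb from its start.

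The sequences shown here are those at the promoters of the type I and type IV genes and at the regions with the smallest p in each direction. They were read from GRCm38 on the strand of the gene, without annotated UTR, and capitals mark matches to the motifs TGANTCA (AP-1), CCAAT or its reverse ATTGG (NF-Y), GGGCGG (SP1), CATTCC (TEAD) and the CArG box (SRF), searched on both strands. The Col1a1 stretch, chr11:94936077-94936223 on the plus strand, ends at the annotated start and holds 2 matches to the reverse of CCAAT. The Col1a2 stretch, chr6:4505370-4505492 on the plus strand, ends at the start of a main transcript and holds 2 matches to GGGCGG. The summit of its region lay in annotated UTR, outside the stretch shown. The summit of the promoter region that Col4a1 and Col4a2 share lay in annotated UTR, and the Col4a1 stretch, chr8:11312300-11312599 on the minus strand, is the coding part of exon 1 and the beginning of intron 1.
Col1a1 promoter: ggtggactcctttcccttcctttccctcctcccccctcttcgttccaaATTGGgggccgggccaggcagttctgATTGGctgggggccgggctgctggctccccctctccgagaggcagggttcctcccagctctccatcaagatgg
Col1a2 promoter: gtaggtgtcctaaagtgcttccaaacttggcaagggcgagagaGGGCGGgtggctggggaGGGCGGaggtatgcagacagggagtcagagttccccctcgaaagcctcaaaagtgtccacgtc
Col4a1 promoter region: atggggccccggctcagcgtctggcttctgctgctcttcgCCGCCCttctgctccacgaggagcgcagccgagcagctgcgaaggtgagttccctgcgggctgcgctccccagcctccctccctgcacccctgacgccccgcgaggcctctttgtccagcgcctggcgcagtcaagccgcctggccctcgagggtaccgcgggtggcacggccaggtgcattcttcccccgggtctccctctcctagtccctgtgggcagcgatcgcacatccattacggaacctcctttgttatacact

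Of the 2 regions that stood higher in Pbrm1 cKO libraries, the Col4a1 stretch is chr8:11205590-11205889 on the minus strand and the Col15a1 stretch chr4:47231378-47231598 on the plus strand. Each holds 1 match to TGANTCA. Of the 2 regions that stood lower, the Col4a3 stretch is chr1:82597210-82597509 on the plus strand and the Col26a1 stretch chr5:136810616-136810797 on the minus strand. Neither holds a match to TGANTCA, and the Col26a1 stretch holds 2 overlapping matches to GGGCGG. The Col4a1 stretch also holds 2 matches to the reverse of CCAAT. Both the Col15a1 stretch (higher) and the Col4a3 stretch (lower) hold 1 match to CATTCC or its reverse. The regions were chosen by p, and a link of motif and direction was not tested. All 4 are intronic.
Col4a1 intron, higher: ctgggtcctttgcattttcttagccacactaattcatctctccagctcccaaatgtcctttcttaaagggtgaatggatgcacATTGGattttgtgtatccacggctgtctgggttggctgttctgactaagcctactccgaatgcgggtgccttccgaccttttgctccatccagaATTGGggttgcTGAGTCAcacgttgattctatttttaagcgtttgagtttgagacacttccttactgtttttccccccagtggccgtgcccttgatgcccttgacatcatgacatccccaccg
Col15a1 intron, higher: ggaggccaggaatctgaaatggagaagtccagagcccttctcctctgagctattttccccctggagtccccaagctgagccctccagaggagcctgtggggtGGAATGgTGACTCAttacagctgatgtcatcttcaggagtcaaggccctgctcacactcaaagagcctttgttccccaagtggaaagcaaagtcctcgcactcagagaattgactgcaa
Col4a3 intron, lower: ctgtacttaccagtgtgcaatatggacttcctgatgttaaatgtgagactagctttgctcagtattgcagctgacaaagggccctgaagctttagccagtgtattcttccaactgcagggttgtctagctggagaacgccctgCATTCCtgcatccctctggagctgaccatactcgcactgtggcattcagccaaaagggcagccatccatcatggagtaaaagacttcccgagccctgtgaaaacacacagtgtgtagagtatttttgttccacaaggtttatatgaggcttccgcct
Col26a1 intron, lower: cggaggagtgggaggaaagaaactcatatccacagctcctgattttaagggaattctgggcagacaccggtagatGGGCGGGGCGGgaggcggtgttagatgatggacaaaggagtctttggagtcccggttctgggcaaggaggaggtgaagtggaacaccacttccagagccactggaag

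In the 300 bases around the summit, TGANTCA was found in 125 of 281 collagen regions (44.5%), against 36.6% of all 66678 regions. Basement membrane regions held it in 51.4%, other collagens in 46.0% and fibrillar regions in 36.1%. Outside promoters the shares were closer, 50.2% in collagen regions and 47.0% in all. GGGCGG was found in 12.8% of collagen regions and 22.7% of all regions, and at promoters in 38.7% and 51.3%. CATTCC was found in 26.0% and 20.7%, CCAAT in 31.3% and 32.9%, and the CArG box, the element bound by SRF in smooth muscle genes, in 3 collagen regions (1.1%) and 1.7% of all. TGANTCA was found in 38.5% of collagen regions called in WT only and 44.8% of those called in Pbrm1 cKO only, against 36.1% and 40.7% over all regions. These shares are descriptions of letters, and the collagen set holds fewer promoters (22.1%) than all regions (32.3%).

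Every collagen gene was given a value in every library by the best entry within 1 kb of its starts, ranked among the 21938 protein-coding promoters, with rank 1 as the strongest. Most collagen promoters stood in the lower part of this list, with a median rank of 12924. None of the 44 had a median rank in the top 25%, and 10 were in the top 50%. The promoters of 37 genes (84.1%) had an entry in all 6 libraries, against 67.1% of all protein-coding genes, and those of Col20a1 and Col28a1 had none in any. Those of Col9a1, Col9a3 and Col10a1 had an entry in 1, 2 and 1 of the 6 libraries.

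The promoters of the type I and type III genes were only moderately accessible. Col1a1 ranked 11189, 11377 and 10991 in WT libraries and 10824, 11443 and 9813 in Pbrm1 cKO libraries. Col1a2 ranked 11106, 10096 and 12024 in WT and 10348, 11033 and 11158 in Pbrm1 cKO libraries. Col3a1 stood lower, at 12774, 13518 and 15393 in WT and 13028, 14796 and 13941 in Pbrm1 cKO libraries. The genotypes overlapped at all 3 genes, and so they did at Col5a1, which encodes a chain of the type V collagen that starts fibrils, with 8522, 9901 and 10071 in WT and 7759, 9819 and 9335 in Pbrm1 cKO libraries. Col5a2, the partner chain of Col5a1, had the best median rank of the fibrillar promoters, with WT libraries at 6637, 8191 and 8209, and stood at 9797, 10144.5 and 10149 in Pbrm1 cKO libraries. The genotypes did not overlap there.

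Among basement membrane genes, Col4a1 and Col4a2 shared 1 promoter, which ranked 10059.5, 10741 and 8435.5 in WT and 10012.5, 9783.5 and 9036.5 in Pbrm1 cKO libraries. Col15a1 ranked 12705, 12917.5 and 13329 in WT and 13385, 13290 and 12838.5 in Pbrm1 cKO libraries. Col18a1, whose product releases endostatin, ranked 9445, 8794 and 7034.5 in WT and 9206, 10794 and 10127 in Pbrm1 cKO libraries. The genotypes overlapped at these 4 genes and at Col4a5 and Col4a6. The promoter that Col4a3 and Col4a4 share did not overlap, with 11669.5, 12807 and 12899 in WT and 13816.5, 13179 and 13042.5 in Pbrm1 cKO libraries (difference −0.10, SE 0.051, adjusted p = 0.864, limma). In the type VI family Col6a2 was the best ranked of all collagen promoters, at 5461, 7189 and 7665.5 in WT and 4343, 4573 and 7433.5 in Pbrm1 cKO libraries. Its neighbour Col6a1 ranked 11042.5, 11218 and 13529 in WT and 11850, 10423 and 11425 in Pbrm1 cKO libraries. Col6a3, the third chain of the common type VI trimer, did not overlap, with 11124, 10956 and 11601.5 in WT and 12344, 14180 and 12099 in Pbrm1 cKO libraries.

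**Figure D2:**
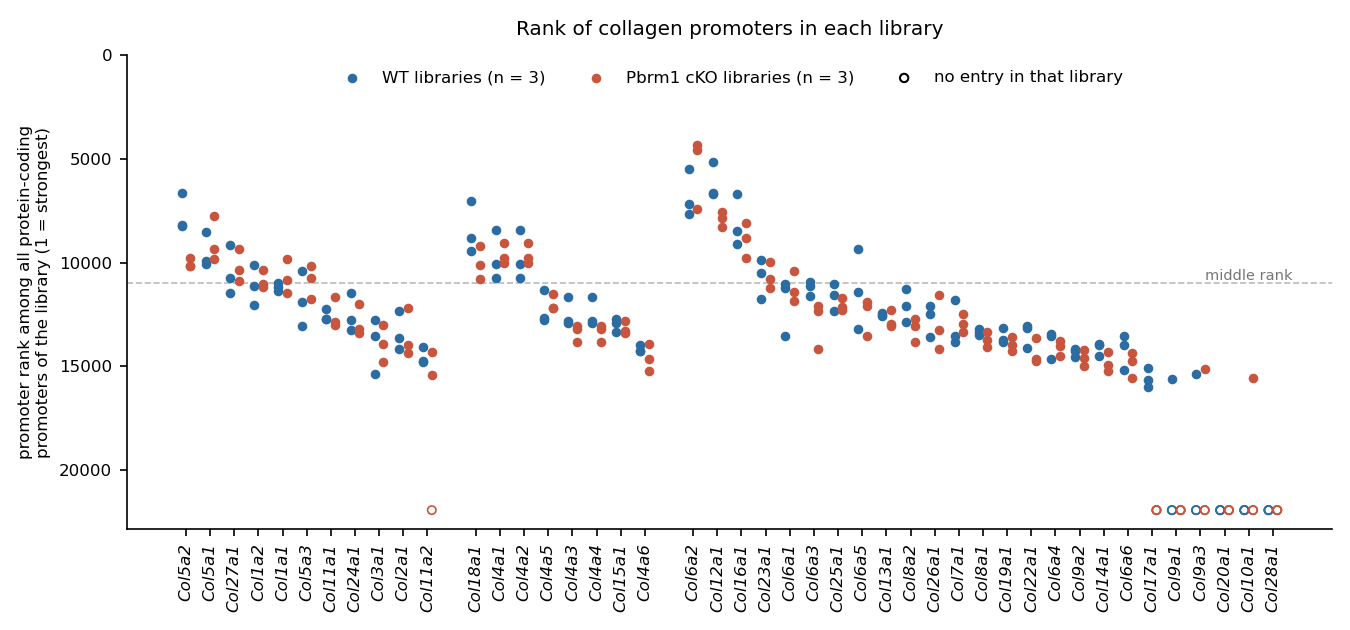
Rank of each collagen promoter (vertical axis, 1 at the top is the strongest of 21938) in the 3 WT libraries (blue) and the 3 Pbrm1 cKO libraries (red), with open circles for a library without an entry and a dashed line at the middle rank. The red points of Col5a2, Col12a1, Col6a3, Col4a3 and Col4a4 all sit below the blue ones, and Col17a1 has open circles in Pbrm1 cKO libraries alone. The share of such promoters over all 21938 was not counted, and among all promoter regions of the merged lists it was 16.9% in either direction.

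For the test, each rank became a rank score, log2(number of promoters / rank), in which a score higher by 1 means a rank number 2 times smaller. Over all protein-coding promoters 89 passed an adjusted p of 0.05, a background of 0.406% (0.246% lower in Pbrm1 cKO), and 1 of the 44 collagen promoters did. This was Col17a1, the transmembrane collagen of epithelial hemidesmosomes, which had weak entries at 15096, 15666.5 and 15987.5 in WT libraries and none in Pbrm1 cKO libraries. Its score was lower by 0.49 in Pbrm1 cKO (difference −0.49, SE 0.022, adjusted p = 0.00172, limma). The call rests on setting an absent entry to the lowest rank, which gives 3 identical values and a spread of 0. The lists of Pbrm1 cKO libraries 1 and 2 also ended at a higher −log10 p than those of all WT libraries. That of Pbrm1 cKO library 3 ended at the lowest. When promoters without an entry in any library were left out, its adjusted p was 0.488 and 5 of 17174 promoters passed, and with 3 kb around starts the difference was 0.036. With the replicate number as a block its adjusted p was 0.0843. At an unadjusted p under 0.05 there were 4 collagen promoters, all lower in Pbrm1 cKO, against a background of 5.96%, with 3.23% lower and 2.73% higher. Besides Col17a1 they were Col5a2 (difference −0.39, SE 0.10, adjusted p = 0.654), Col12a1 (−0.37, SE 0.13, adjusted p = 0.799) and Col6a3 (−0.19, SE 0.073, adjusted p = 0.819). Col12a1 encodes a fibril-associated collagen, and its promoter ranked 6628, 6676 and 5159 in WT and 7534, 8261 and 7835 in Pbrm1 cKO libraries.

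The same score was computed for the merged regions, ranked within each library among 66678. No collagen region passed an adjusted p of 0.05, against a background of 0.069% (46 regions, 0.039% higher and 0.03% lower), and the smallest adjusted p was 0.0844. At an unadjusted p under 0.05 there were 40 collagen regions (14.2%), 16 higher and 24 lower in Pbrm1 cKO, against a background of 15.9%, with 7.6% higher and 8.3% lower. The libraries of the genotypes did not overlap in 51 regions (18.1%), 23 higher and 28 lower, against a background of 21.4%, with 10.6% higher and 10.8% lower. Both shares were near the background. The median difference over the 281 regions was 0.025, and that over all regions 0.001. By class it was 0.014 for fibrillar, 0.034 for basement membrane and 0.018 for other collagens, and 52.3% of the regions were higher in Pbrm1 cKO, against 50.1% of all regions. No sign of these medians held throughout: with ranks by fold those of all collagen, fibrillar and basement membrane regions were −0.025, −0.027 and −0.054, and without WT library 3 that of all collagen regions was 0.0051 and that of basement membrane regions −0.030. The median of other collagens was negative when any 1 library was left out. With 3 libraries a group the fit had limited power. In simulated data the −log10 p of 200 regions was changed 4-fold, of which 27.5% were recovered, and 0 unchanged regions were called. A 4-fold change of accessibility itself was not simulated.

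**Figure D3:**
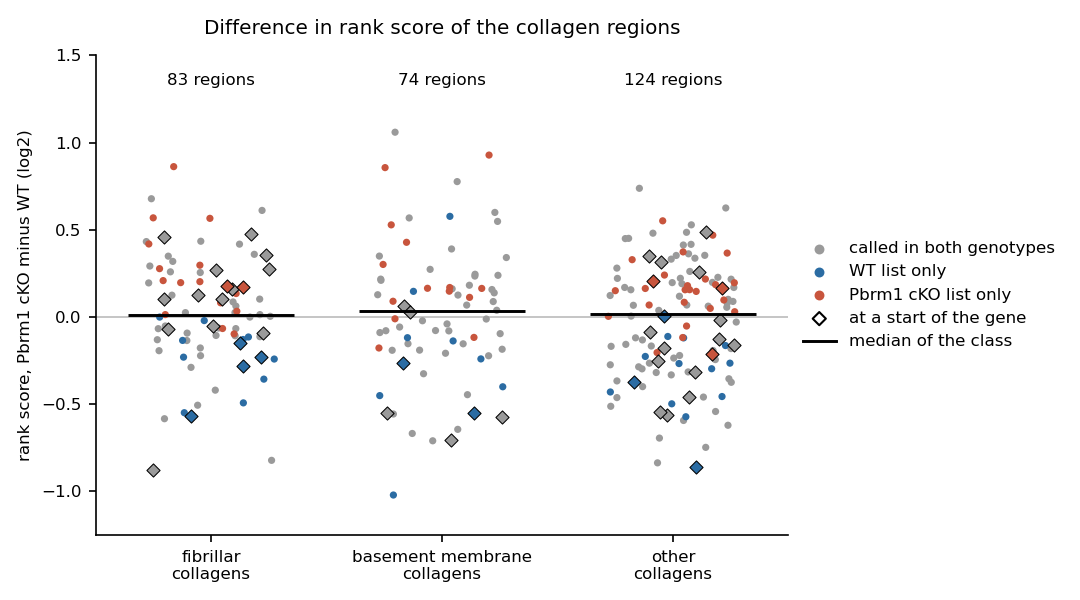
Difference in rank score between Pbrm1 cKO and WT libraries (vertical axis, log2, mean of 3 minus mean of 3) of each collagen region by class, coloured by the list that called it, with diamonds for regions at a start of the gene and a black line for the median of the class. The points scatter on both sides of 0 in each class, and the medians lie at 0.014, 0.034 and 0.018.

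The collagen regions were also set beside all regions of the same place. Of the 46 regions at own starts, 20 were higher and 26 lower in Pbrm1 cKO, with a median difference of −0.078, and 5 lower and 0 higher had an unadjusted p under 0.05. Over all promoter regions 46.0% were higher, the median was −0.041 and 12.4% had such a p, 1701 of them lower and 967 higher. The libraries did not overlap in 7 of the 46, namely 6 lower and 1 higher (15.2%), against 16.9% of all promoter regions (2204 lower and 1431 higher). The 6 were both regions at the Col5a2 start and those of Col6a3, Col12a1, an internal start of Col8a2 and the start that Col4a3 and Col4a4 share, and the higher one was an internal start of Col13a1. Of the 167 intronic regions in collagen gene bodies, 93 were higher and 74 lower, the median was 0.038 and 17.4% had an unadjusted p under 0.05, against a median of 0.035 and 17.9% over all introns. For both places the shares with both directions together lay close to those of all regions of the same kind. The few regions at own starts leaned further to lower than all promoter regions did, which was not tested.

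The region with the smallest p was an intronic one in Col4a1, 107 kb from its start (chr8:11205425-11205923). It ranked 61983 and 65893 in WT libraries 1 and 2 and had no entry in WT library 3, and it ranked 29378, 37361 and 41817 in Pbrm1 cKO libraries. It held 13 and 6 tags in the former and 34, 24 and 23 tags in the latter. All Pbrm1 cKO libraries stood above all WT libraries, with a score difference of 0.86 (SE 0.19, adjusted p = 0.0844, limma). A second region of Col4a1, 12.1 kb from the start (chr8:11300391-11301121), ranked 41688, 27332 and 54228 in WT and 15104, 19201 and 23545 in Pbrm1 cKO libraries (difference 1.06, SE 0.34, adjusted p = 0.150). In Col15a1, which encodes a basement membrane zone collagen of muscle, an intronic region 23.3 kb from the start (chr4:47231378-47231598) ranked 59374, 61700 and 41934 in WT and 32310, 24133 and 28591 in Pbrm1 cKO libraries. Its tags numbered 20, 17 and 14 in WT and 38, 39 and 38 in Pbrm1 cKO libraries (difference 0.93, SE 0.27, adjusted p = 0.122). A second Col15a1 region, 70.4 kb from the start, ranked 23036, 28142 and 38480 in WT and 17769, 14696 and 19020 in Pbrm1 cKO libraries. The genotypes did not overlap in any of these 4 regions. Of the 3 best-ranked regions called in the Pbrm1 cKO list only, the third beside those of Col4a1 and Col15a1 lay in the Col11a2 window at the start of Rxrb and Slc39a7 (chr17:34031954-34032441), ranked 29599, 58885 and 21064 in WT and 18881, 11928 and 27157 in Pbrm1 cKO libraries, and overlapped.

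The other 6 of the 10 regions with the smallest p among those higher in Pbrm1 cKO were 2 in Col4a2, 2 in Col5a1 and 1 each in Col5a2 and Col27a1. Their differences ran from 0.30 to 0.57 and their adjusted p from 0.166 to 0.262. All 6 were intronic, and their libraries did not overlap in 4 of them. The exceptions were the Col5a1 region 40.6 kb from the start and the Col5a2 region 8.0 kb from the start. The Col27a1 region, 61.5 kb from the start of this fibrillar gene, ranked 65093, 60784 and 61733 in WT and 53250, 46678 and 53008 in Pbrm1 cKO libraries, in the weaker part of the list in both.

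Among the regions lower in Pbrm1 cKO, the smallest p was that of a Col4a3 intron 10.4 kb from the start (chr1:82597040-82597663). Col4a3 encodes a type IV chain best known from the kidney glomerulus. The region ranked 31386, 20485 and 30170 in WT and 45802, 62280 and 56802 in Pbrm1 cKO libraries, with 24, 28 and 14 tags in the former and 18, 10 and 12 in the latter (difference −1.02, SE 0.28, adjusted p = 0.108, limma). It had the largest negative difference of the 281 regions. A Col26a1 intron 72.5 kb from the start (chr5:136810616-136810797) ranked 42542, 37416 and 56250 in WT libraries, had 1 entry at 66161 in Pbrm1 cKO library 2, and had none in the others (difference −0.57, SE 0.16, adjusted p = 0.109). A Col24a1 intron 201 kb from the start (chr3:145493717-145493973) ranked 39944, 56462 and 39244 in WT and 65834, 64520 and 65226 in Pbrm1 cKO libraries (difference −0.55, SE 0.16, adjusted p = 0.122). All 3 were called in the WT list only, and their genotypes did not overlap.

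The 2 regions at the Col5a2 start were lower in all Pbrm1 cKO libraries, as its promoter ranks were. The one called in both genotypes (chr1:45502772-45503430) ranked 7503, 11957 and 9570 in WT libraries and stood at 17247, 17566 and 17660 in Pbrm1 cKO libraries. It held 65, 50 and 32 tags in WT and 48, 42 and 40 in Pbrm1 cKO libraries, so that the tags of WT library 3 lay below those of the knockouts while its rank lay above (difference −0.88, SE 0.34, adjusted p = 0.213). The one beside it (chr1:45502386-45502665) ranked 31948, 40855 and 58236 in WT and 63324, 64959 and 59881 in Pbrm1 cKO libraries (difference −0.57, SE 0.19, adjusted p = 0.168), and its difference was −0.36 without WT library 1. At the Col6a3 start (chr1:90843892-90844223) the ranks were 24264, 25484 and 23877 in WT and 40308, 62939 and 34858 in Pbrm1 cKO libraries (difference −0.86, SE 0.31, adjusted p = 0.187). The start that Col4a3 and Col4a4 share (chr1:82586413-82587609) ranked 28510, 45307 and 36843 in WT and 61893, 50567 and 47664 in Pbrm1 cKO libraries (difference −0.55, SE 0.24, adjusted p = 0.266). The 4 remaining lower regions by smallest p were 2 introns of Col4a2, 1 intron of Col6a5 and 1 region beyond the end of Col23a1 at the start of Phykpl, with differences from −0.84 to −0.40. The −0.84, at the start of Phykpl, was −0.39 without WT library 3.

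**Figure D4:**
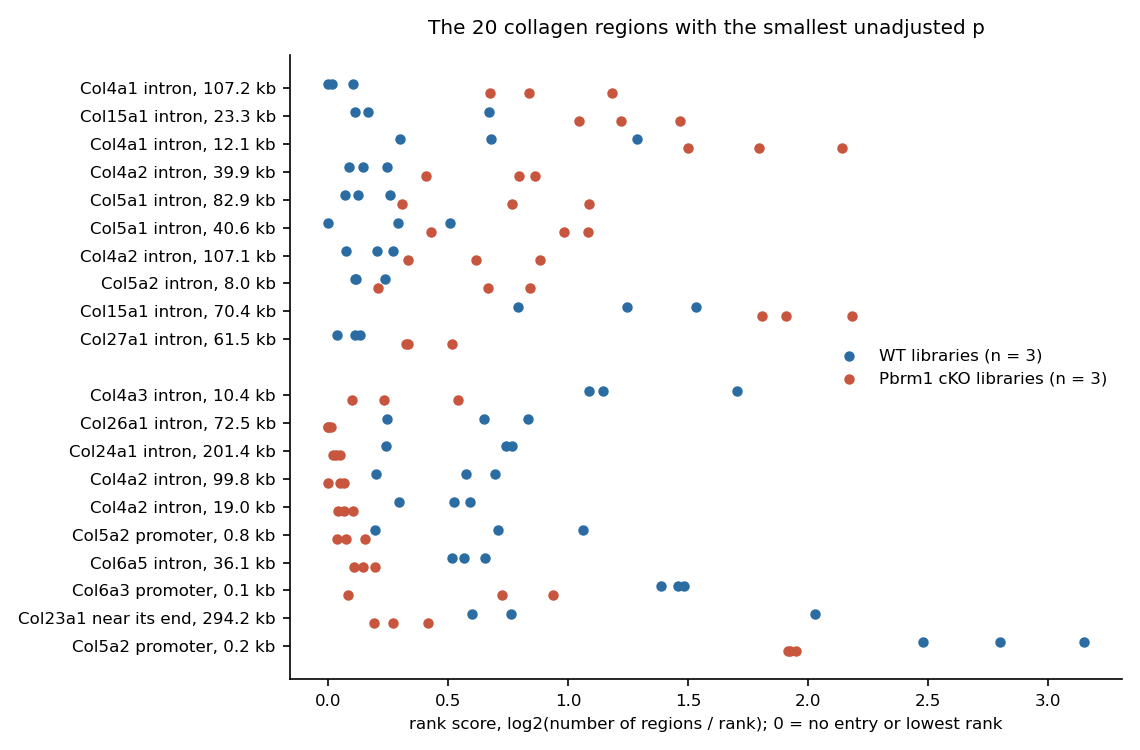
Rank score (horizontal axis, log2 of the number of regions over the rank) of the 10 higher and the 10 lower collagen regions with the smallest unadjusted p, in the 3 WT libraries (blue) and the 3 Pbrm1 cKO libraries (red), each labelled with its gene, place and distance from the start of the gene. These regions were chosen for their difference, and the highest score among them is 3.15, in WT library 1 at the Col5a2 start.

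The choice of scale decided whether any region passed. With normal scores of the ranks in place of log2, 4 of 281 collagen regions passed (1.42%), against a background of 2.33%. They were the Col4a1 intron 107 kb from the start (adjusted p = 0.0140), and, lower in Pbrm1 cKO, the introns of Col26a1 (0.00302), Col24a1 (0.0315) and a Col4a2 intron 99.8 kb from the start (0.0472). In all 4 the libraries of the weaker genotype ranked at 61983 or beyond or had no entry. With ranks by fold in place of p, 0 passed.

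The paired genes Col4a1 and Col4a2, which lie head to head and encode the chains of the common type IV network, held 31 regions, the most of the neighbouring pairs. Of these, 21 were called in both genotypes, 4 in WT only and 6 in Pbrm1 cKO only. The shared promoter (chr8:11311963-11313282) ranked 17794, 23968 and 10101 in WT and 18452, 15817 and 12931 in Pbrm1 cKO libraries and did not separate the genotypes (difference 0.064, SE 0.37). Along the genes 23 regions (74.2%) were higher and 8 lower in Pbrm1 cKO, with a median of 0.21. The shares higher over all regions and over all intronic ones were 50.1% and 53.5%, with medians of 0.001 and 0.035. The genotypes did not overlap in 5 higher and 5 lower regions (32.3%), against 21.4% of all regions and 23.7% of all intronic ones. These differences were not tested. The regions of opposite direction lay interleaved within Col4a2, as at 19.0 kb (lower) and 39.9 kb (higher), and at 99.8 kb (lower) and 107 kb (higher) from its start. The strongest region of the locus, in an intron of Col4a2 80.5 kb from the start, averaged a score of 3.18 over WT libraries and 2.62 over Pbrm1 cKO libraries (difference −0.56, SE 0.35) and did not overlap. By contrast the other type IV pairs held few regions: Col4a3 and Col4a4 had 7, of which 5 were lower, and Col4a5 and Col4a6, on the X chromosome, had 9, of which 7 were lower. The shares higher were 28.6% and 22.2%, against 50.1% of all regions, which was not tested.

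**Figure D5:**
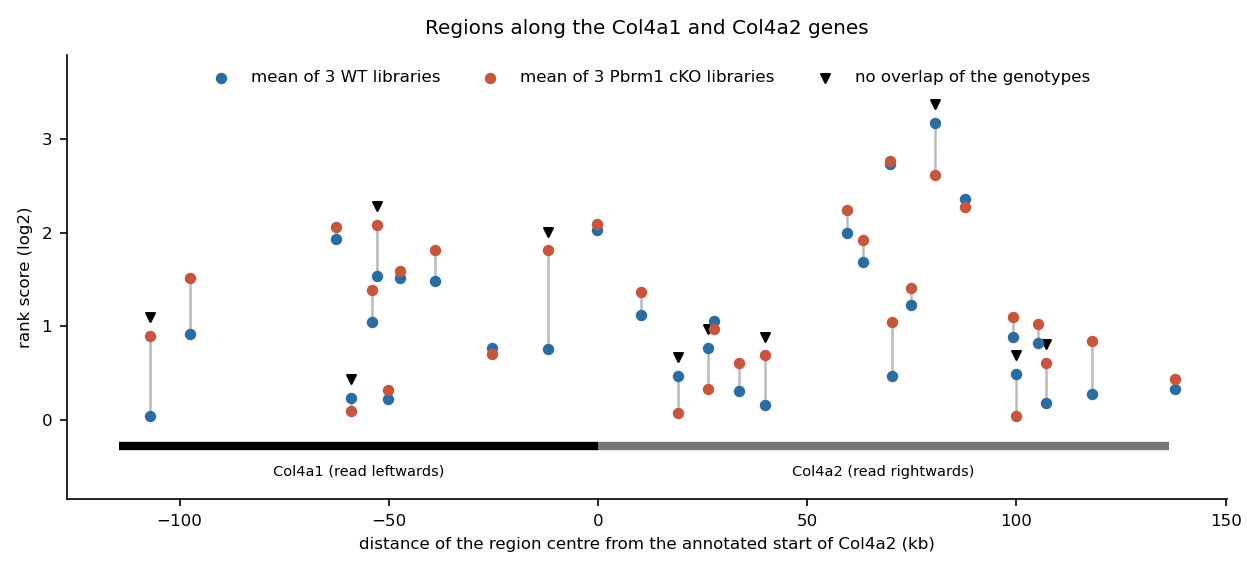
Mean rank score (vertical axis, log2) of the 31 regions of Col4a1 and Col4a2 in 3 WT (blue) and 3 Pbrm1 cKO libraries (red) against the distance of the region from the start of Col4a2 in kb (horizontal axis). Triangles mark the 10 regions whose genotypes did not overlap, 5 higher and 5 lower in Pbrm1 cKO (32.3%, against 21.4% of all regions), and the promoter at 0 shows nearly the same mean in both.

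Single genes leaned to 1 side without a region that passed. In Col6a3 10 of 11 regions were higher in Pbrm1 cKO, and the exception was the region at its start. In Col27a1 14 of 18 and in Col5a1 9 of 12 were higher. In Col18a1 10 of 13, in Col24a1 8 of 10 and in Col1a1 5 of 7 were lower. Over all regions 50.1% were higher. Col24a1 had 6 of its 10 regions in the WT list only, the most of any collagen gene, against 13.4% of all regions. Col27a1 had 7 of 18 and Col6a3 5 of 11 in the Pbrm1 cKO list only, against 17.4% of all regions. List and direction are linked: 11.5% of all WT-only regions and 80.2% of all Pbrm1 cKO-only regions were higher. Regions of 1 gene share their libraries and are not replicates, and these leanings were not tested.

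The number of distinct intervals of the single-library lists in collagen windows was 877, 855 and 902 in WT and 799, 829 and 862 in Pbrm1 cKO libraries. The means were 878 ± 23.5 and 830 ± 31.5 (SD, n = 3 each) and were not separated (p = 0.2 by a two-sided exact permutation, 0.533 adjusted for 8 comparisons). For other collagens the counts did not overlap, with means of 446 ± 21.1 (WT) and 396 ± 15.0 (Pbrm1 cKO; SD, n = 3 each). The p of 0.1 by exact permutation is the lowest possible with 3 against 3, and its adjusted value was 0.533. As a share of each list's distinct intervals, collagen windows took 0.405% ± 0.030 (WT) and 0.407% ± 0.011 (Pbrm1 cKO), with n = 3 each and p = 1 by exact permutation. The share of other collagens was 0.205% ± 0.012 (WT) and 0.194% ± 0.0054 (Pbrm1 cKO), with n = 3 each and p = 0.2 by exact permutation (0.533 adjusted). WT library 3 had the most distinct intervals in its whole list, 241237, against 201228 to 209436 in the others. Per gene the counts ranged widely, from 45, 43 and 49 intervals in WT and 46, 47 and 54 in Pbrm1 cKO libraries at Col4a2 to 0, 0 and 2 in WT and 1, 2 and 2 in Pbrm1 cKO libraries at Col10a1.

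The genes that make, process, remove and sense collagen were taken from a list of 48. None of their promoters passed the threshold, against the background of 0.406%, and 2 higher and 3 lower had an unadjusted p under 0.05, against 2.73% and 3.23% of all promoters. The 19 hydroxylases and chaperones had a better median promoter rank than the collagens, 6035, with 9 in the top 25%. P4hb, the disulfide isomerase subunit of prolyl hydroxylase, ranked 1224, 541 and 551 in WT and 932, 388 and 591 in Pbrm1 cKO libraries. P4ha2, a catalytic subunit of the same enzyme, ranked 7993, 7752.5 and 6721.5 in WT and 4354, 4882.5 and 6253 in Pbrm1 cKO libraries (difference 0.55, SE 0.17, adjusted p = 0.735, limma). Timp2, an inhibitor of matrix metalloproteinases, was the other of the 2 higher ones (difference 0.28, SE 0.091, adjusted p = 0.773). The 3 lower ones were Adamts3 and Bmp1, which cleave procollagen ends, and Loxl1, a crosslinking enzyme, with differences from −0.17 to −0.14. The median ranks of the 13 processing and crosslinking genes, the 9 turnover genes and the 7 receptors were 10655, 11796 and 10778.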

How the data were processed

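ATAC-seq was available as peak lists for 6 libraries of primary oviductal smooth muscle cells, 3 WT and 3 Pbrm1 cKO, grouped by the labels. Per the study's methods the authors ran the ENCODE ATAC-seq pipeline on GRCm38, with MACS2 peaks; the submitters' processing notes also name cutadapt, Bowtie2 and GRCm38.p5. The authors deposited 1 relaxed list per library and 1 pooled list of conservative peaks per genotype that passed an irreproducible discovery rate threshold. In each entry the deposited columns are the fold enrichment over background (a ratio), the −log10 p, a rescaled score and, not used here, a −log10 q. The replicates behind the pooled lists are not given in the sources used here. The lists hold no read counts, total depth is unknown, and the study's count test (DESeq2 on reads in peaks) was not run.

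The pooled lists were merged into 66678 regions. Regions, and promoters within 1 kb of any GENCODE M21 start, were ranked in each library by the best −log10 p over them, with no entry as the lowest rank, and log2(number / rank) was fitted with limma 3.58.1 in R 4.3.3 (lmFit, eBayes with trend), Benjamini-Hochberg adjusted over the whole table at 0.05. Ranks cannot show a shift that all regions share. Tags over a summit were solved from fold and p within 0.1%, and gave a whole number for 100% of collagen entries. Interval counts were compared by exact permutation over 10 splits. The rank fit was tested on simulated data over 66678 regions (values in the report). There the −log10 p of the changed regions was multiplied or divided, with noise drawn independently for each library. The genes, classes and lists were chosen with earlier results of these data known. The text names the 10 higher and 10 lower regions with the smallest p, the 3 best-ranked of each single list, fixed promoters, the 5 genes with most regions and those with none; genes and regions named outside this rule, such as Col12a1, Col13a1, P4hb and those under other observations, were chosen after their values were seen. Python 3.11.15, numpy 2.4.6, pandas 2.3.3 and scipy 1.17.1 were used. Alternatives covered the scale and measure of the ranks, filters, window and promoter widths, the replicate number as a block, and leaving out each library.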

Additional observations from a re-analysis of the deposited data

How the results depend on the processing

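Over all alternatives 324 of 342 values were graded the same as in the main setting, 9 as moved, 4 as stronger and 5 as reversed. The grade of same also covers wide shifts, as for the region in the Col11a2 window with ranks by fold (0.86 to 0.16). It covers a change of sign close to 0 as well, as for the fibrillar median with ranks by fold (0.014 to −0.027). Of the 342 values, 221 belong to the named regions, largely chosen for a small p. With gene body plus 50 kb, 311 regions were called in both genotypes. With the stronger 50% of each list, 20 were WT only and 24 Pbrm1 cKO only. Normal scores passed 1 collagen region higher and 3 lower, at 1.80 (Col4a1), −2.08 (Col26a1), −1.53 (Col24a1) and −1.45 (Col4a2) on that scale. The medians of the differences lie so near 0 that their sign is not stable: with ranks by fold they were −0.025 over all collagen regions and −0.054 for basement membrane collagens. Leaving out 1 library moved the basement membrane median between −0.030 (without WT library 3) and 0.050 and that of other collagens between −0.031 (without WT library 1) and −0.0013, so that it was negative without any 1 library. The lower promoter call (Col17a1) was lost (0 passed) with 3 kb around starts and with the replicate block (adjusted p = 0.0843, limma). It was also lost with an entry in at least 1 library, an alternative chosen after seeing the data. The setting with entries in all 6 libraries left Col17a1 out before the fit, so it could not test this call. Over all genes 89 promoters passed, against 83 with 3 kb around starts and 24 with the replicate block. With an entry in at least 1 library 5 passed, and with entries in all 6 libraries 3 passed. Over all regions 46 passed, 7 with ranks by fold and 1552 with normal scores. Counting entries before reduction to distinct intervals turned the difference of −48 to 25.3 (exact permutation p = 0.8). With gene bodies alone the interval counts of the genotypes did not overlap, at a difference of −56 (exact permutation p = 0.1, the lowest possible). With the 100000 best-ranked intervals the difference was −2.67 (exact permutation p = 0.8). Replicate numbers did not pair the libraries: the correlations of same-numbered deviations were −0.00282, −0.0548 and 0.00933. With the replicate block, which leaves mean differences as they are in a balanced design, 0 collagen regions passed. The paired interval difference was −48 (exact permutation p = 0.25). That is the lowest p possible with 3 pairs, and all 3 fell the same way. Low tag numbers limit weak regions most, since collagen summits held as few as 4 to 7 tags in single libraries.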

Other observations

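Beyond the comparison of genotypes, some of the best-ranked regions in collagen windows belonged to neighbouring genes. The region at the start of Mff, beyond the end of Col4a3, ranked 1546, 385 and 187 in WT and 699, 397 and 1755 in Pbrm1 cKO libraries, the best of the 281. The best-ranked intronic region was in Col23a1, a transmembrane collagen, 249.9 kb from its start, and ranked 5952, 5059 and 9954 in WT and 3150, 9026 and 4470 in Pbrm1 cKO libraries. An intron of Col8a1, a short-chain collagen of vessel walls, 82.9 kb from its start, ranked 7706, 3098 and 6138 in WT and 4951, 9712 and 5656 in Pbrm1 cKO libraries. Both had a better median rank than any region at a collagen start, and the genotypes overlapped. These regions were chosen after their values were seen.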
